A study of Mus musculus with 6 samples.

Results

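The Smad and Id genes were examined in LβT2 cells with a scrambled siRNA or an siRNA labelled Gas. The genes were picked by symbol, at a time when earlier results of these data were known: the receptor-regulated Smads Smad1, Smad2, Smad3 and Smad5, the common partner Smad4, the inhibitory Smads Smad6 and Smad7, and the Id genes Id1, Id2 and Id3. Of these 10 genes, 9 had a probe in the platform annotation, with 17 of the 45281 probes of the array, against 19057 genes with a probe in all. Smad4 is not listed in that annotation and was not analysed here. LβT2 is a mouse cell line of gonadotrope origin (gonadotropes are the pituitary cells that secrete luteinizing and follicle-stimulating hormone), immortalised with a viral T antigen driven by a luteinizing hormone beta subunit promoter, and its strain is given as CB6F1/J. Both groups were the same cells 48 h after transfection, with 3 samples each, and they differ by label in the siRNA alone. Gas was read as Gs alpha, the G protein subunit that stimulates adenylyl cyclase, encoded by Gnas. The labels do not say whether the 3 samples of a group were separate cultures, so the spread behind each p-value is that of these samples and may be only technical.

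Smad proteins carry the signals of the TGF-beta superfamily from the membrane to the nucleus. Activins, TGF-betas and GDF9 act through type I receptors that phosphorylate Smad2 and Smad3, and bone morphogenetic proteins (BMPs) through type I receptors that phosphorylate Smad1 and Smad5. Phosphorylated Smads join Smad4 and enter the nucleus, where Smad3 takes part in activin induction of Fshb, the follicle-stimulating hormone beta subunit gene, in gonadotropes. Smad6 and Smad7 restrain the receptors, and the Id genes are direct targets of Smad1 and Smad5 that encode dominant-negative partners of basic helix-loop-helix (bHLH) transcription factors. The series asks how GDF9 acts on Fshb, and an array measures transcript levels, not the phosphorylation by which Smads are switched on.

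None of the 8 Smad and Id genes that could be tested passed the test between Gas siRNA and scrambled siRNA. Their log2 changes, Gas siRNA minus scrambled siRNA, ran from -0.42 for Smad1, on a probe near background, to 0.27 for Id3. Of these changes 3 were positive and 5 negative. The median was -0.020, against -0.00022 over the 11442 genes tested. Over all genes 196 passed at an adjusted p under 0.05, which is 1.71% (0.734% higher and 0.979% lower with Gas siRNA), so a count of 0 among 8 is near the background. By probe, 0 of their 12 tested probes passed in limma, against 1.21% of all probes. In the same limma fit 0 of the 8 genes had an unadjusted p under 0.05, against 11.3% of all genes. The test was limma's moderated test with an intensity trend, adjusted with the Benjamini-Hochberg method over 21535 probes.

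The siRNA target fell. The brightest Gnas probe read 3697, 3579 and 3864 with scrambled siRNA and 568, 608 and 598 with Gas siRNA, a log2 change of -2.91 (SE 0.0868, limma adjusted p = 6.08e-20). Of the gonadotrope markers with a probe, 7 of 8 were above background on all 6 arrays (Cga, Egr1, Foxl2, Gnrhr, Lhb, Nr5a1 and Pitx1). The remaining one, Fshb, was above it on 0 of 6, so the hormone gene of the study's question had no measurable level here. The summed intensity of the 8 gonadotrope markers ranged from 42870 to 47382 with scrambled siRNA and from 42505 to 45945 with Gas siRNA. Among 7 markers of other endocrine pituitary cells, 6 were above background on no array (Ghrhr, Mc2r, Pomc, Prl, Tbx19 and Tshb) and Gh was above it on all, and among 5 fibroblast markers 0 were above it on all arrays. Of 5 folliculostellate and stem cell markers, Sox9 was above it on all arrays and 2 (Aldh1a1 and S100b) on none, and their sum ranged from 751 to 851 with scrambled siRNA and from 750.4 to 814 with Gas siRNA. The endothelial markers Cdh5 and Pecam1 were above it on all arrays, and the sum over 3 endothelial markers ranged from 1684 to 1780 with scrambled siRNA and from 1567 to 1672 with Gas siRNA. These ranges did not overlap, and their part in the values below was not tested. Taken singly, 16.1% of all tested genes had groups that did not overlap.

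Values are the authors' intensities on a linear scale, where background lay at about 128, and a probe counted as above background when it exceeded the 95th percentile of this background, at 143 to 144. Of the 17 Smad and Id probes, 12 were above it on at least 3 arrays and were tested, and 10 of these on all 6 arrays. The other 5 were 3 Smad1 probes, the Smad7 probe and 1 of 3 Id2 probes, and 4 of them (not that of Id2) were above background on 0 arrays. Different probes bind with different strength, so no probe's level is set against another's.

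**Figure D1:**
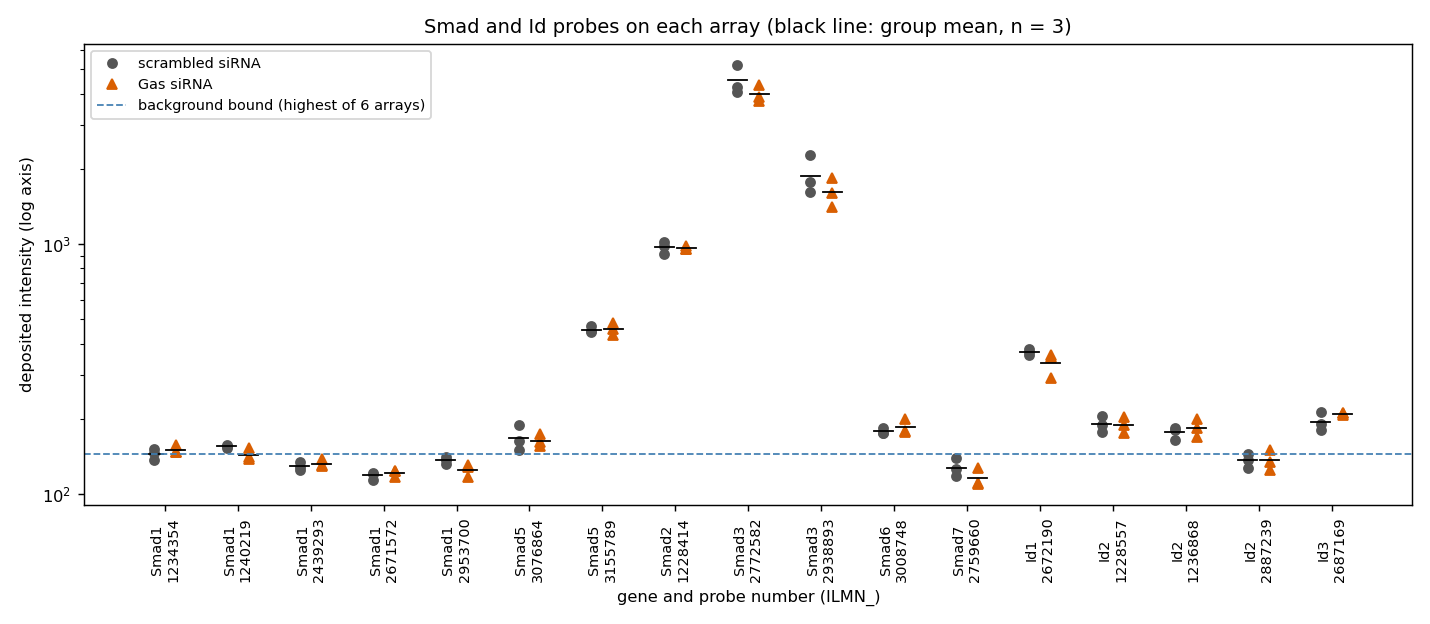
Deposited intensity (log axis) of each of the 17 Smad and Id probes on the 3 scrambled siRNA arrays (circles) and the 3 Gas siRNA arrays (triangles), with group means as black lines and the background bound dashed. In all but 1 of the 12 tested probes the arrays of the groups overlap, where 14.8% of all tested probes have groups that do not.

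Smad2 and Smad3, the activin and TGF-beta branch, were clearly detected. Smad2 read 1022, 916 and 981 with scrambled siRNA and 954, 981 and 957 with Gas siRNA. The Gas siRNA arrays all lay inside the range of the scrambled siRNA arrays. Its log2 change was -0.014 (SE 0.0942, limma adjusted p = 0.977), and its 95% interval of 0.866-fold to 1.13-fold was among the narrowest of these genes.

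Smad3, the Smad most tied to Fshb in gonadotropes, had 2 probes. The brighter (ILMN_2772582) read 4273, 4069 and 5213 with scrambled siRNA and 3897, 3746 and 4343 with Gas siRNA. Scrambled siRNA replicate 3 stood above the other arrays, and the highest Gas siRNA array lay above 2 of the scrambled siRNA arrays. Its log2 change was -0.18 (SE 0.0867, limma adjusted p = 0.5002), with an interval of 0.782-fold to 1.001-fold. The second probe (ILMN_2938893) read 1610, 1771 and 2264 with scrambled siRNA and 1847, 1405 and 1597 with Gas siRNA, again with scrambled siRNA replicate 3 highest and overlapping groups. Its log2 change was -0.23 (SE 0.111, limma adjusted p = 0.496), with an unadjusted p of 0.0491, the only 1 under 0.05 among the 12 tested probes of these genes, where 10% of all probes were under it. Both Smad3 probes thus read lower on average by 1.13-fold and 1.17-fold, neither passing. On the brighter probe the difference was -0.066 without scrambled siRNA replicate 3 (limma adjusted p = 0.903). It was -0.25 without scrambled siRNA replicate 2 (limma adjusted p = 0.304). The unadjusted limma p of that probe was 0.0513, and it was under 0.05 in 6 of 16 alternative settings.

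Smad3 had the smallest p of the gene-level tests, so the genes most like it across arrays were listed. Over the 6 arrays, 113 of 11441 other genes had a Pearson r above 0.9 with the brighter Smad3 probe. The highest were those of 2700097O09Rik, Gprasp1, Myorg, Man2b1 and Pcp4l1, with r from 0.996 to 0.984. Their own log2 changes ran from -0.35 for Pcp4l1 to -0.12 for Man2b1 and did not pass. With 6 arrays of 2 groups, all normalized together, these values describe likeness only.

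Smad1 and Smad5, the BMP branch, differed in how well they were measured. The brighter Smad5 probe (ILMN_3155789) read 451, 444 and 470 with scrambled siRNA and 485, 432 and 460 with Gas siRNA. Here the Gas siRNA arrays held both the highest and the lowest value. Its log2 change was 0.013 (SE 0.117, limma adjusted p = 0.984), with an interval of 0.855-fold to 1.19-fold. The second Smad5 probe (ILMN_3076864) lay nearer background, at 151 to 189 with scrambled siRNA and 156 to 173 with Gas siRNA, and its log2 difference was -0.066 (SE 0.234).

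All 5 Smad1 probes lay at or near background. The probe that represented the gene (ILMN_1240219), annotated to a cDNA record and not to the RefSeq transcript of the other 4, read 157, 156 and 153 with scrambled siRNA and 141, 138 and 152 with Gas siRNA. It was above background on 3 of 3 scrambled siRNA arrays and on 1 of 3 Gas siRNA arrays, so it entered the test through the group where it was high. The groups did not overlap, as for 14.8% of all tested probes, and its log2 difference was -0.42 (SE 0.230, limma adjusted p = 0.578). The other tested Smad1 probe (ILMN_1234354) read 145, 151 and 137 with scrambled siRNA and 148, 157 and 148 with Gas siRNA. There the groups overlapped and the log2 difference had the opposite sign, 0.22 (SE 0.235, limma adjusted p = 0.830). The probes of Smad1 thus gave no shared direction, and the remaining 3 read between 114 and 140 on every array.

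The inhibitory Smads are themselves induced by Smad signalling and feed back on it. Smad6, which restrains mainly the BMP branch, read 176, 175 and 184 with scrambled siRNA and 178, 200 and 178 with Gas siRNA. Only Gas siRNA replicate 2 stood above the scrambled siRNA range. Its log2 change was 0.14 (SE 0.192, limma adjusted p = 0.885), and -0.0029 without that array. Smad7, which restrains both branches, read 126, 139 and 118 with scrambled siRNA and 128, 110 and 110 with Gas siRNA. The probe was not above background on any array, so no Smad7 difference is given.

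The Id genes report on Smad1 and Smad5 activity in many cell types. Sequence upstream of Id2 and Id3 is shown for the Id genes with a promoter entry, with matches to the motifs searched in capitals. The letters are the 250 bases before the annotated start, 5′ to 3′ on the strand of the gene, from RefSeq on GRCm38.p6. Id2 lies at chr12:25096093-25096342 on the minus strand and Id3 at chr4:136143572-136143821 on the plus strand.
Id2: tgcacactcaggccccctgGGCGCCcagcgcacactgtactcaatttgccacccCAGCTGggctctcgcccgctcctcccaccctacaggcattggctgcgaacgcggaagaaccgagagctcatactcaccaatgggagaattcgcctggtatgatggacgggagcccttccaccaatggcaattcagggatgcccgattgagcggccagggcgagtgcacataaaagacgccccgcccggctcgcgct
Id3: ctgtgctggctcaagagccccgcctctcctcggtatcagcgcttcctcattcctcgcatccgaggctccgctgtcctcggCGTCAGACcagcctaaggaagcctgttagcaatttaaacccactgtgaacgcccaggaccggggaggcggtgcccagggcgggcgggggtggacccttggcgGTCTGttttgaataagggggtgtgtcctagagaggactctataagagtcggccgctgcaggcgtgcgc
The motifs were the cAMP response element TGACGTCA, its core TGACG (which the full element contains), the CAGA box CAGAC bound by Smad3 and Smad4, the GC-rich Smad site GGCGCC and the E-box CANNTG bound by bHLH factors, each on both strands. The Id2 window held 1 GC-rich site, 231 to 226 bases before the start, and 1 E-box, CAGCTG, 196 to 191 bases before it. The Id3 window held 1 cAMP response element core (170 to 166 bases before the start, on the opposite strand), which overlapped the first of 2 CAGA boxes (167 to 163 bases before it), and the second box, as GTCTG, lay 68 to 64 bases before the start. Among all 32851 windows of this length, 17.8% held the core, 42.2% a CAGA box, 9.59% the GC-rich site and 66.2% an E-box. The full TGACGTCA element, held by 1.55%, was in none of the 8 windows read for the Smad and Id genes. These belonged to Smad1, Smad3, Smad5, Smad6, Id2 and Id3, which are 6 of the 10 genes. No window was read for Smad2, Smad4, Smad7 or Id1, so the absence of the element does not extend to them. The Smad1 window held 1 TGACG core. The 3 windows of Smad5 belong to different annotated starts and overlap in part. Of them 1 held an E-box, 1 an E-box and a GC-rich site, and 1 a core and a CAGA box. Both E-box matches are a single CAAGTG site in the stretch where the windows overlap. The Smad3 and Smad6 windows held no match to any of these motifs, and a match is a description of letters, not of binding.

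Id1 read 360, 371 and 380 with scrambled siRNA and 292, 360 and 355 with Gas siRNA. Gas siRNA replicate 1 stood well below the other arrays, and replicate 2 of that group lay just inside the scrambled siRNA range. The log2 change was -0.22 (SE 0.138, limma adjusted p = 0.657), with an interval of 0.706-fold to 1.05-fold. Without Gas siRNA replicate 1 it was -0.072 (limma adjusted p = 0.932).

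Id3 read 190, 213 and 180 with scrambled siRNA and 212, 207 and 211 with Gas siRNA. The Gas siRNA arrays were close together and the highest scrambled siRNA array lay above them all. The log2 change was 0.27 (SE 0.181, limma adjusted p = 0.696), with an interval of 0.929-fold to 1.55-fold. It ranged from 0.14 without scrambled siRNA replicate 3 to 0.42 without scrambled siRNA replicate 2.

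Id2 had 2 tested probes. The brighter (ILMN_1228557) read 206, 177 and 190 with scrambled siRNA and 189, 176 and 204 with Gas siRNA, over nearly the same range. Its log2 change was -0.025 (SE 0.195, limma adjusted p = 0.982). The other (ILMN_1236868) read 181, 164 and 184 with scrambled siRNA and 200, 170 and 183 with Gas siRNA, a log2 difference of 0.16 (SE 0.205, limma adjusted p = 0.873). The third Id2 probe was above background on 1 array of each group and was not tested. The 3 Id genes thus showed differences of either sign, with overlapping groups on every tested probe.

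**Figure D2:**
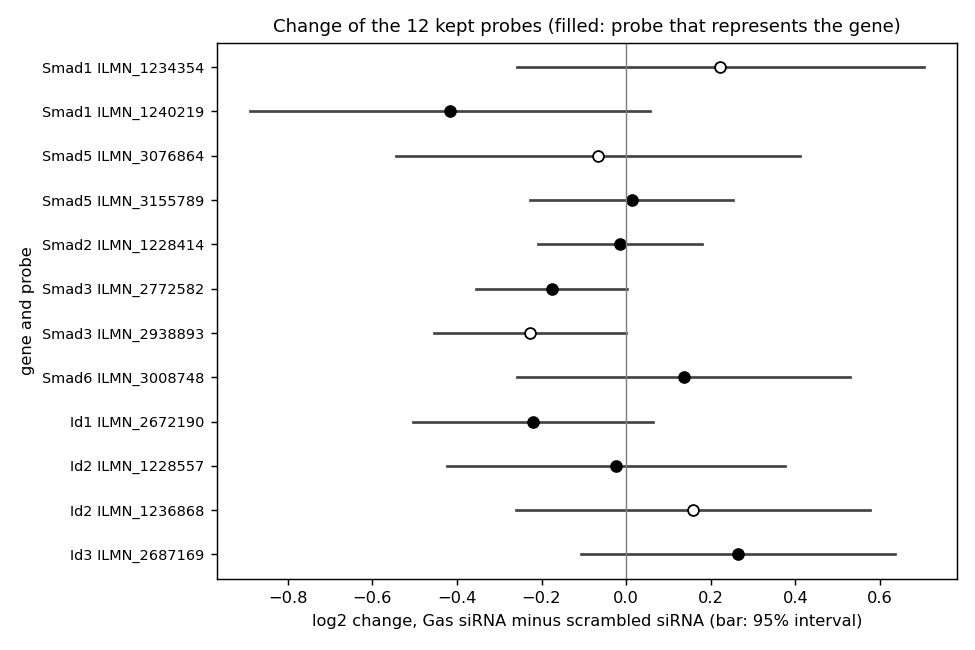
Log2 change (Gas siRNA minus scrambled siRNA, x axis) of the 12 tested Smad and Id probes with the 95% interval of the limma fit, filled where the probe represents its gene. All intervals but that of the second Smad3 probe include 0, and the widest belong to the dimmest probes.

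A test that was not passed does not show equal levels, so the intervals set what these arrays allow. For 6 of the 8 genes (Smad2, Smad3, Smad5, Smad6, Id1 and Id2) the whole 95% interval lay within a 1.5-fold change in either direction, a size chosen after the values were seen. The intervals of Smad1 and Id3 reached beyond it, to 0.540-fold for Smad1 and 1.55-fold for Id3. The number within 1.5-fold was 3 to 8 in the alternatives tried, with the lowest count without Gas siRNA replicate 3. The distance from the change to either end of its interval was 0.18 on the log2 scale for Smad3 and 0.47 for Smad1, against a median of 0.27 over all genes tested. These log2 values include an offset of 16 added after background correction, which understates the change of dim probes such as those of Smad1, Smad6, Id2 and Id3.

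**Figure D3:**
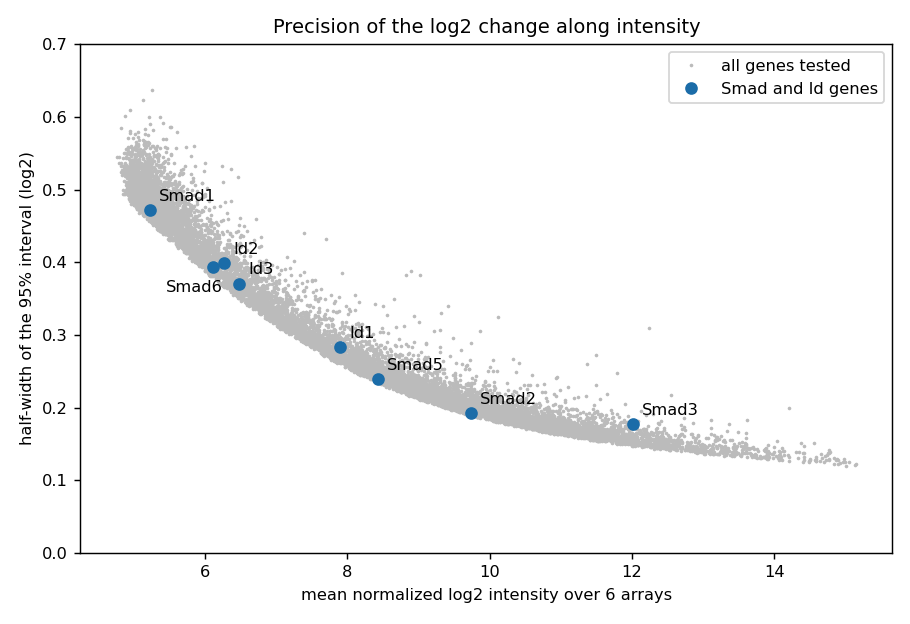
Distance from the log2 change to the end of its 95% interval (y axis) against mean normalized log2 intensity over the 6 arrays (x axis) for all 11442 genes tested (grey) and the 8 Smad and Id genes (blue). The distance was larger for dimmer genes, from 0.18 for Smad3 to 0.47 for Smad1, in a fit that itself includes an intensity trend. Without that trend the SE was 0.131 for Smad3 and 0.152 for Smad1.

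Genes around the Smads were read from lists chosen with earlier results of these data known. Among 12 tested ligands and antagonists 1 rose, 1 fell and 10 did not pass, with a median log2 change of -0.16. Over all genes tested 0.734% rose and 0.979% fell. An unadjusted limma p under 0.05 was found for 3 of the 12, against 11.3% of all genes. The gene that rose was Gdf9, the oocyte-secreted ligand of the study's title, by 0.80 (SE 0.0832, limma adjusted p = 4.92e-07), and the gene that fell was Inha, the inhibin alpha subunit, with a log2 change of -1.78 (limma adjusted p = 1.14e-10). The Gdf9 probe lost its call without the intensity trend (limma adjusted p = 0.151). The other 14 listed ligands and antagonists with a probe were not above background on enough arrays to be tested.

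Among 11 tested receptors and co-receptors 0 passed in limma, against 1.71% of all genes, and the median log2 change was -0.0098. In the same fit 2 of the 11 had an unadjusted p under 0.05, against 11.3% of all genes. Those were Tgfbr1, the type I receptor that phosphorylates Smad2 and Smad3, and Amhr2, the type II receptor of anti-Müllerian hormone, whose signal runs through Smad1 and Smad5. The brightest Tgfbr1 probe read 2271, 2026 and 1948 with scrambled siRNA and 1695, 1841 and 1604 with Gas siRNA. The groups did not overlap there, and the log2 difference was -0.30 (SE 0.0880, limma adjusted p = 0.109, or 0.0439 with the replicate number as a block). The other 2 tested Tgfbr1 probes, near background, had differences of the opposite sign (0.065 and 0.17, limma adjusted p = 0.962 and 0.888), and with probes averaged the difference was -0.020 (limma adjusted p = 0.973). Amhr2 had 3 tested probes, which read the same 6 samples, and on each the lowest Gas siRNA array lay above the highest scrambled siRNA array. Groups did not overlap for 14.8% of all tested probes and 16.1% of all tested genes. Its brightest probe read 7374, 8052 and 7651 with scrambled siRNA and 9002, 8720 and 8866 with Gas siRNA, a log2 difference of 0.21 (SE 0.0679, limma adjusted p = 0.171), and the other 2 gave 0.22 and 0.25 with limma adjusted p of 0.334 and 0.208.

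Among 25 tested Smad partners and regulators 1 fell and 24 did not pass, where 0.979% of all genes fell. An unadjusted limma p under 0.05 was found for 2 of the 25, against 11.3% of all genes. The gene that fell was Ctdspl, a small phosphatase of the family that dephosphorylates Smads in human cells. It read 445, 428 and 405 with scrambled siRNA and 293, 319 and 354 with Gas siRNA. The groups did not overlap, as for 14.8% of all tested probes. The log2 change was -0.59 with an SE of 0.133 (limma adjusted p = 0.0181). The call was lost when scrambled siRNA replicate 1 or 2 was left out (limma adjusted p = 0.0887 and 0.0680), when Gas siRNA replicate 1 or 2 was left out (0.128 and 0.0752), and without the intensity trend (0.257). The list's median log2 change was -0.016. Smad9, the third BMP-branch Smad, was above background on 0 arrays.

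Among 11 tested targets of Smad2 and Smad3 1 rose and 10 did not pass, with a median log2 change of 0.066. Over all genes tested 0.734% rose. An unadjusted limma p under 0.05 was found for 1 of the 11, against 11.3% of all genes. The gene that rose was Cdkn2b, a cyclin-dependent kinase inhibitor induced by TGF-beta in human epithelial cells. It read 2150, 1776 and 1849 with scrambled siRNA and 2399, 2512 and 2372 with Gas siRNA, and rose by 0.36 (SE 0.0862, limma adjusted p = 0.0292). Its call was kept without scrambled siRNA replicate 1 and lost without any other single array (limma adjusted p from 0.0624 to 0.164), with no filter on dim probes (0.0528), with probes averaged (0.0519) and without the intensity trend (0.407).

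Among 12 tested targets of Smad1 and Smad5, 4 of which are Id1, Id2, Id3 and Smad6, the median log2 change was 0.047. In limma 0 of the 12 passed and 0 had an unadjusted p under 0.05, against 1.71% and 11.3% of all genes. The smallest p belonged to Dlx3, a homeobox gene, and Bmper, which encodes a BMP-binding protein, with differences of 0.45 (SE 0.230, limma adjusted p = 0.523) and 0.25 (SE 0.131, limma adjusted p = 0.558). The Dlx3 probe lay near background, at 142 to 179 over the arrays, and without scrambled siRNA replicate 3 its difference was 0.20. Id4, the fourth Id gene, had a log2 difference of -0.22 (SE 0.213, limma adjusted p = 0.805) on its brighter probe and of -0.54 (SE 0.223, limma adjusted p = 0.364) on the other. On that second probe the groups did not overlap, as for 14.8% of all tested probes. On the brighter one the difference ran from -0.10 without Gas siRNA replicate 1 to -0.37 without Gas siRNA replicate 3. Both Id4 probes lay near background, at 152 to 175 on the brighter and 141 to 174 on the other. The list of bHLH partners of the Id proteins or of their targets also held Id4 itself. Among its 11 tested genes, 0 passed in limma, against 1.71% of all genes, and the median was -0.088. In that fit 1 of the 11 had an unadjusted p under 0.05, against 11.3% of all genes. That gene was Msc, musculin, which read 157, 170 and 160 with scrambled siRNA and 138, 142 and 144 with Gas siRNA, a difference of -0.72 (SE 0.224, limma adjusted p = 0.142). The Msc probe was above background on 3 of 3 scrambled siRNA arrays and 1 of 3 Gas siRNA arrays, so it entered the test through the group where it was high. Hey1, a bHLH repressor that is also listed as a target, had a difference of -0.26 (SE 0.141, limma adjusted p = 0.570).

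**Figure D4:**
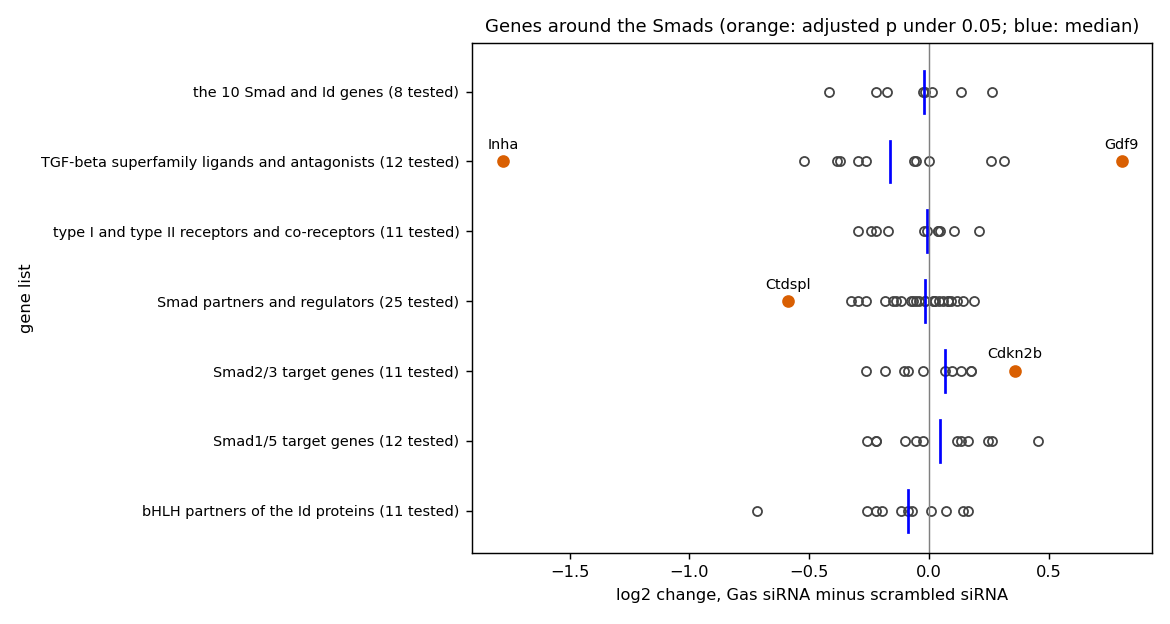
Log2 change (Gas siRNA minus scrambled siRNA, x axis) of each tested gene of the Smad and Id genes and of the 6 surrounding lists, with medians in blue and genes that passed in orange. Inha, Gdf9, Ctdspl and Cdkn2b passed, and no Smad or Id gene did.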

How the data were processed

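Total RNA of 6 LβT2 samples was measured on Illumina MouseWG-6 v2.0 BeadChips. The values are the authors' deposited intensities, 1 per probe and array, normalized between arrays. Per the submitters' processing notes BeadStudio was used, by a normalization method not given in the sources used here. A further table of 24 columns matched no sample's labels and was not used, nor were its detection p-values. For each array the background mean (128) was the mode of the log2 intensities and its SD (8.49 to 8.71) came from the values below it. Normexp with an offset of 16, quantile normalization and log2 followed. A probe was kept if above the 95th percentile of background on at least 3 of 6 arrays (21535 probes), and the kept probe with the highest mean stood for its gene. The comparison used limma 3.58.1 under R 4.3.3 (lmFit, eBayes with an intensity trend, 2-sided), adjusted with Benjamini-Hochberg over kept probes, with a threshold of 0.05. The number of arrays limits precision.

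Between 46.3% and 47.1% of probes were above background per array, and correlations between arrays were 0.995 to 0.996. The platform annotation gave 1 symbol for 34885 probes, several for 18 and none for 10378 unlisted ones, and gene numbers changed 0 symbols against the RefSeq table of GRCm38.p6. Members and lists were chosen with earlier results of these data known. Named were all members, Gnas, Gdf9, Inha and Fshb, the members of each list that passed or otherwise the 2 with the smallest p, and the 5 genes most like the member with the smallest p. Id4 and Smad9 were named as the remaining genes of their families. Same-numbered samples had correlations of deviations of 0.017 to 0.096, against -0.081 to 0.023 for other-numbered ones. The labels give no pairing, so the replicate number was not taken as one. These correlations do not settle whether same-numbered samples were paired.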

Additional observations from a re-analysis of the deposited data

How the results depend on the processing

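No Smad or Id gene passed in any of the 16 alternatives. The unadjusted limma p was under 0.05 in 6 of 16 for Smad3, 2 of 15 for Smad1 and 1 of 16 for Id3. For Smad2, Smad5, Smad6, Id1 and Id2 it was under 0.05 in 0 of 16. With probes of a gene averaged, the uncalled differences of Smad5 and Id2 changed sign, to -0.027 and 0.067, and that of Smad1 shrank from -0.42 to -0.097. With each array left out in turn the uncalled differences ranged from -0.063 to 0.026 for Smad2, from -0.041 to 0.070 for Smad5, from -0.0029 to 0.21 for Smad6 and from -0.16 to 0.11 for Id2, while those of Smad1, Smad3, Id1 and Id3 kept their sign. Smad1 had no value with a filter for all arrays. Over all genes, 196 passed, against 5 without the intensity trend, 119 with probes averaged, 290 with the replicate number as a block and 104 to 150 without 1 array. The block called none of the 8 Smad and Id genes. The cause of these shifts was not tested. Low signal limits Smad1, Smad6, Smad7, Id2 and Id3 most.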
